A study of Mus musculus with 12 samples.

Results

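Fgf23 encodes a secreted hormone, and Galnt3, Furin and Fam20c encode enzymes that act on its protein inside the secretory pathway. These 4 genes, of 32285 in the deposited UMI tables, were followed in single cells of neonatal mouse liver. Fgf23 was chosen on its level in these same data, which was higher in endothelial cells of anemic than of control mice, so its levels are given as a description with no test. The other members were chosen for their role in processing FGF23 and were tested.

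Livers came from 12 C57BL6/J mouse pups, 6 control and 6 with phlebotomy-induced anemia (PIA), each collected at P11 as 1 library. Anemic pups lost 20 µL of blood per gram of body weight every 2 days from P2 to P10, toward a hematocrit of 20 to 24%, and the liver was taken 24 h after the last bleed. Control pups were handled alike with needle sticks and were not bled, and the labels name no transgene or deleted gene in either group. Y-linked reads marked 4 of the control pups and 2 of the anemic pups as female.

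FGF23 is known as a bone hormone that acts on the kidney through FGF receptors and Klotho, lowering phosphate reabsorption and active vitamin D. It can leave the cell intact or in pieces, depending on changes made to it in the secretory pathway. GALNT3 attaches an O-glycan beside the cleavage site and shields it, furin and related convertases cut the protein there, and FAM20C phosphorylates a serine next to the site, which hinders the glycan and favours cleavage. Erythropoietin, iron deficiency, hypoxia and inflammation are known to raise Fgf23 transcription.

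The 3 reactions meet within a few codons of exon 3 of 3 of Fgf23. The stretch at chr6:127080236-127080280 on the plus strand of GRCm38 (mm10) covers codons 172 to 186 of 251 and is shown because all 3 enzymes act in it. The capitals mark the convertase motif at codons 176 to 179, which holds the O-glycosylated codon 178, and the kinase motif at codons 180 to 182.
Fgf23 processing site: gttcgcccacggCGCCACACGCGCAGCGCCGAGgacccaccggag
The convertase motif occurred 4 times in the coding sequence and the kinase motif 4 times, and 1 convertase motif was followed directly by a kinase motif, the site shown.

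The gene bodies are Fgf23 (ENSMUSG00000000182) at chr6:127072902-127081408 on the plus strand, Galnt3 (ENSMUSG00000026994) at chr2:66082766-66124994 on the minus strand, Furin (ENSMUSG00000030530) at chr7:80388585-80405436 on the minus strand and Fam20c (ENSMUSG00000025854) at chr5:138754514-138810077 on the plus strand, all in GENCODE M21 on GRCm38. No annotated gene overlapped Fgf23, Galnt3 or Fam20c, and 1 antisense gene, Gm44851, overlapped Furin on the other strand.

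The libraries held 46252146 to 74545930 UMIs, and 206146 of 207537 barcodes were kept. Clusters were given the name of a cell class from marker genes, written with "-like" since the authors' own cell names were not used here, and 15 classes were named. Levels are CPM, UMIs of a gene per 1000000 UMIs of all genes in the summed cells of a class in 1 mouse, with n = 6 mice a group. Log2 differences of tested genes are edgeR estimates with TMM scaling, made without mitochondrial and ribosomal protein genes. The CPM are not scaled in this way, so the CPM means and the log2 difference of a gene can differ in size or sign. Overlap between groups was read on CPM, and no share of all genes without overlap is given. The level of a single cluster or sub-cluster is computed over all its cells in a group, unless a mean over mice is named, and has no SD. Endothelial-like cells numbered 26925, and all 10 endothelial markers were higher in CPM there than in any other named class. They made up 16.1% of control and 10.3% of anemic cells, and the libraries of anemia 2 and anemia 3 stood apart with 5.59% and 5.15%. Doublets were called for 14.8% of the endothelial-like cells and were kept. Pairs of libraries shared 51 to 121 cell barcodes, at most 0.69% of the smaller library.

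Fgf23 was found mainly in endothelial-like cells in both groups, and there all anemic mice had more of it than the highest control. The 6 control mice had 59.5, 62.9, 54.2, 92.8, 77.1 and 89.8 CPM, a mean of 72.7 ± 16.3 (SD). The 6 anemic mice had 1095, 482, 498, 876, 561 and 883 CPM, a mean of 733 ± 254 (SD). The groups did not overlap, and anemia 2 and anemia 3 had the lowest anemic values. The difference of the mean log2(CPM) was 3.29, resting on 6014 control and 56330 anemic Fgf23 UMIs. It was the contrast by which the gene was chosen, and no test of it was made. Without anemia 2 and anemia 3, the pair with few endothelial-like cells, the difference was 3.54.

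Markers of other cells also moved within the endothelial-like sums. The 9 erythroid markers summed to 1114 to 5066 CPM in controls and 5909 to 13555 CPM in anemic mice, with Epb42 and Klf1 under 1 CPM in both groups. The 8 hepatocyte markers summed to 1774 to 3160 CPM in controls and 371 to 1865 CPM in anemic mice. Their part in the levels of Fgf23 was not tested. Leaving out called doublets gave a control mean of 74.6 ± 16.2 CPM and an anemic mean of 769.7 ± 237 CPM for Fgf23 (SD).

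**Figure D1:**
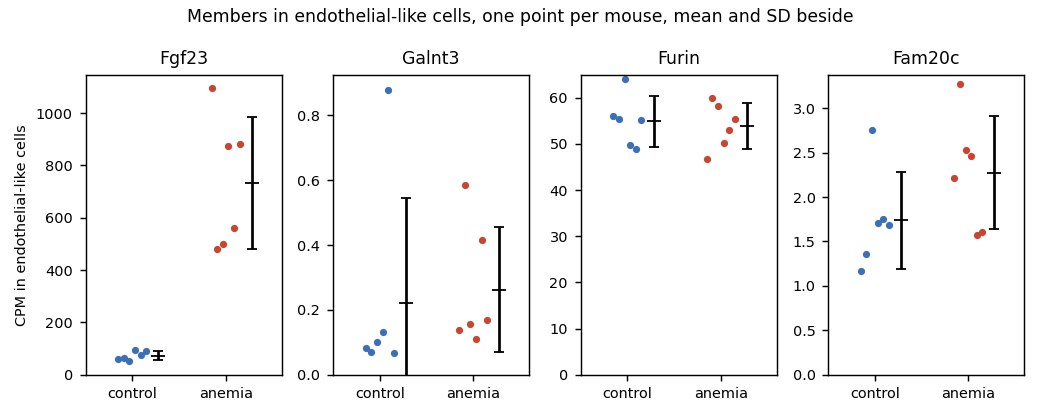
CPM of Fgf23, Galnt3, Furin and Fam20c in endothelial-like cells, 1 panel a gene, with 1 point per mouse in the control and PIA groups and the mean with its SD beside the points (the lower bar of Galnt3 in controls is cut at 0). Fgf23 lies at 54.2 to 92.8 CPM in controls and at 482 to 1095 CPM in PIA, while the points of the other genes overlap between the groups.

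Across the whole liver, with all kept cells of a mouse summed, Fgf23 ran from 15.1 to 32.9 CPM in controls and from 65.4 to 338 CPM in anemic mice. Anemia 2 and anemia 3 gave the lowest anemic values, 67.2 and 65.4 CPM, and were also the mice with the fewest endothelial-like cells. Fewer endothelial cells and less Fgf23 per endothelial cell both lower such a sum, so these whole-liver values were not used further. Of all Fgf23 UMIs, 74.2% in controls and 79.5% in anemic mice lay in endothelial-like cells. The share of a single mouse ran from 68.3 to 82.8% in controls and from 69.9 to 82.5% in anemic mice.

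Fgf23 was carried by more endothelial-like cells and at more UMIs per cell in anemic liver. A mean of 15.6% (range 12.2 to 18.8%) of a control mouse's endothelial-like cells had an Fgf23 UMI, and 53.0% (45.1 to 62.5%) of an anemic mouse's. Median depth was 3671 UMIs per cell in control and 4450 in anemia, so each cell was also thinned to 1000 UMIs, with shallower cells left out. The shares were then 5.37% (4.30 to 6.90%) and 32.8% (25.6 to 42.2%), and the groups still did not overlap. B-like cells, set beside them for comparison, had a UMI in 0.0219% of control and 0.505% of anemic cells, at median depths of 1330 and 1524 UMIs. After thinning the B-like shares were 0.0113% and 0.278%. The paper lists Fgf23 among the genes upregulated in B cells of anemic liver. Whether the B-like UMIs came from other cells was not tested. The endothelial-like shares were far above the B-like shares in both groups.

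Over all endothelial-like cells of a group, 1.95% of control and 27.9% of anemic cells held at least 5 Fgf23 UMIs. Cells with at least 20 UMIs were 0.0444% and 7.06%, and the most in any cell was 30 UMIs in control and 145 in anemia. Among cells with a UMI, the median was 2 UMIs in control and 5 in anemia. The 10% of cells with most Fgf23 held 85.0% of the control UMIs and 57.9% of the anemic UMIs. This share falls as UMIs per cell rise, so no spread over cells was read from it.

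Endothelial-like cells were clustered again without the 4 members or any gene of the pathway lists below, and gave 19 sub-clusters. Sinusoidal endothelial cells are the fenestrated lining of the liver's capillaries and carry scavenger receptors such as stabilin. Sub-clusters called sinusoidal-like held 18416 cells, those with large-vessel markers 1775 and 1 with lymphatic markers 186, and 6548 cells lay in sub-clusters without a name. The sinusoidal-like ones had all 7 sinusoidal markers raised over other cells. So did the large-vessel-like one led by Adgrg6 and Gja5 and most unnamed ones. Against the other endothelial-like cells, no sinusoidal-like sub-cluster had more than 2 markers of its best-matching type raised, so this name is a broad one. Sinusoidal-like cells had 66.5, 70.4, 64.0, 103.5, 86.2 and 97.4 CPM of Fgf23 in controls and 1276, 601, 429, 1047, 651 and 1140 CPM in anemic mice. Large-vessel-like cells had 13.8, 33.1, 13.3, 16.6, 12.9 and 30.6 CPM in controls and 333, 182, 131, 262, 199 and 224 CPM in anemic mice. Every mouse was thus lower in large-vessel-like than in sinusoidal-like cells, and in both kinds of cell the anemic mice lay above all controls. Sinusoidal markers were also found in large-vessel-like cells, such as Fcgr2b at 175 against 742 CPM and F8 at 483 against 789 CPM. Called doublets made up 26.7% and 17.7% of the large-vessel-like sub-clusters. Sinusoidal RNA as a source of the large-vessel-like Fgf23 was not tested. Lymphatic-like cells held 0 Fgf23 UMIs in control and 2 in anemia.

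Only 95 sinusoidal-like cells came from anemia 2 and 223 from anemia 3, against 1309 to 2219 in the other mice. A sub-cluster led by the interferon-response genes Cxcl9, Ubd and Gbp2 stayed unnamed. It held 37 control and 1098 anemic cells, and its cells had 91.8 CPM of Fgf23 in control and 613 CPM in anemia, where 2 mice had at least 20 of its cells, at 588 and 642 CPM.

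Fgf23 differed widely among sinusoidal-like sub-clusters within each group. The sub-cluster led by Majin, Pde4c and Mast1 had 103 CPM in control and 1098 CPM in anemia. The one led by Tafa2, Lhx6 and Piezo2, which also carried Wnt2, a Wnt ligand of endothelial cells around the central vein, had 111 and 1057 CPM. Cells led by C9, Gm16271 and Gm14798 had the lowest sinusoidal-like level in both groups, 14.0 and 229 CPM. Dividing cells, led by Top2a, Diaph3 and Mki67, had 77.6 and 750 CPM, and cells led by Esm1, Ccn2 and Apln, genes known from sprouting endothelium, had 27.6 and 422 CPM. In all 8 sinusoidal-like and both large-vessel-like sub-clusters the anemic level was above the control level.

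Fgf23 itself led the sub-cluster with the most Fgf23. Its next genes were Sele, Cfap69, Selp and Platr31, of which Sele and Selp encode E-selectin and P-selectin, the adhesion receptors that endothelial cells show to leukocytes. The sub-cluster held 154 CPM in 183 control cells and 1536 CPM in 2465 anemic cells. The anemic mice with at least 20 of its cells ran from 1021 to 1836 CPM. Most of its cells were anemic and Fgf23 was picked for its rise in anemia. The list of leading genes is therefore a description and ties none of them to Fgf23. Other genes that differ with anemia shaped the sub-clusters, so their sizes were not compared between the groups.

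**Figure D2:**
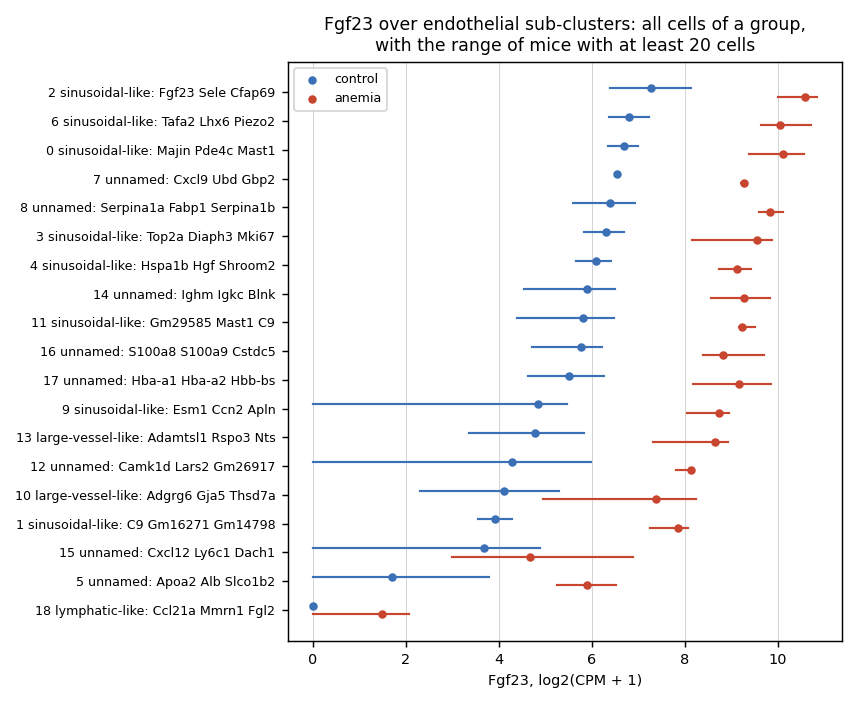
Fgf23 level in each endothelial sub-cluster on a log2(CPM + 1) axis, for control and PIA, with the point for all cells of the group and the line for the range of mice with at least 20 cells. The highest levels are 1536 CPM in PIA and 154 CPM in control, both in the sub-cluster led by Fgf23, Sele and Cfap69, and the lymphatic-like sub-cluster is near 0 in both groups.

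The order of classes by Fgf23 began with endothelial-like at a mean of 403 CPM over the 12 mice, followed by stellate-like at 172 CPM, NK-like at 15.8 CPM and plasmacytoid dendritic-like at 10.1 CPM. The stellate-like class, named for the vitamin A-storing pericytes of the liver, also holds a cluster led by the fibroblast genes Mfap4, Col1a1 and Col1a2 and one led by the smooth muscle genes Acta2 and Tagln. It had 39.9, 28.1, 17.7, 53.3, 28.9 and 54.6 CPM in controls. The anemic values were 594, 176, 132, 400, 228 and 313 CPM, again above every control. In each anemic mouse the stellate-like level was below the endothelial-like level of the same mouse.

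Most of this signal sat in clusters with many called doublets. The stellate-like cluster led by Ank3, Colec11 and Ntm, of which 63.0% of cells were called doublets, had 57.5 CPM in control and 860 CPM in anemia. The cluster led by Mfap4, Col1a1 and Col1a2, with 55.2% called doublets, had 4.06 and 34.0 CPM. Without called doublets the stellate-like means were 17.1 ± 13.8 CPM in control and 42.0 ± 35.6 CPM in anemia (SD), and the groups overlapped, at 3.51 to 35.1 and 0 to 102 CPM. NK-like cells had a mean of 4.03 CPM in control and 27.5 CPM in anemia, and 0.414 and 1.37 CPM without called doublets. Their UMIs lay largely in a cluster with 99.4% called doublets, at 56.3 and 523 CPM, of which 2 anemic mice had at least 20 cells. Without called doublets, plasmacytoid dendritic-like cells held 0 Fgf23 UMIs in control and 7 in anemia, a mean of 1.29 CPM. One plasmacytoid dendritic-like cluster of 94 cells, 100% of them called doublets, had 148 CPM over both groups.

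Fgf23 was also set against endothelial transcripts in these classes. Per 1000 UMIs of the 10 endothelial markers, endothelial-like cells had 5.89 Fgf23 UMIs in control and 67.5 in anemia, stellate-like cells 7.32 and 95.9, hepatocyte-like cells 6.52 and 61.1, and NK-like cells 5.00 and 40.2. B-like cells had 0.235 and 5.10 and macrophage-like cells 0.365 and 3.05, well below the endothelial ratio. Erythroid-like cells had 1.71 and 64.8, the former from 2 Fgf23 UMIs. B-like cells had 515 CPM of Pecam1 and macrophage-like cells 375 CPM of Cdh5, in each case the next class after endothelial-like. The marker UMIs of B-like and macrophage-like cells may thus not be endothelial RNA, and no source of Fgf23 was read from their low ratios. Without called doublets endothelial-like cells had 5.77 and 66.1, stellate-like cells 9.26 and 57.2, hepatocyte-like cells 6.11 and 42.8 and NK-like cells 2.34 and 6.80. Endothelial RNA in doublets or in free RNA was not tested as a source of these values.

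In the other classes Fgf23 was low. Hepatocyte-like cells had a mean of 4.38 CPM in control and 13.5 CPM in anemia, which became 0.662 and 3.65 CPM without called doublets. Cholangiocyte-like cells, of the bile ducts, had 0.853 and 16.5 CPM from 3 and 46 UMIs. Called doublets made up 71.2% of them, and without these the means were 0 and 2.70 CPM, the latter from 3 UMIs. Erythroid-like cells had 0.683 ± 1.29 and 6.79 ± 7.62 CPM (SD), the latter with anemia 4 at 21.6 CPM. Without called doublets the erythroid-like means were 0.555 and 1.70 CPM. B-like cells had 0.128 and 2.86 CPM. The remaining 7 classes had means of 0 to 0.335 CPM in control and 0.904 to 2.38 CPM in anemia. From NK-like down, neighbours in the order differed by less than the larger of their SDs over mice.

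**Figure D3:**
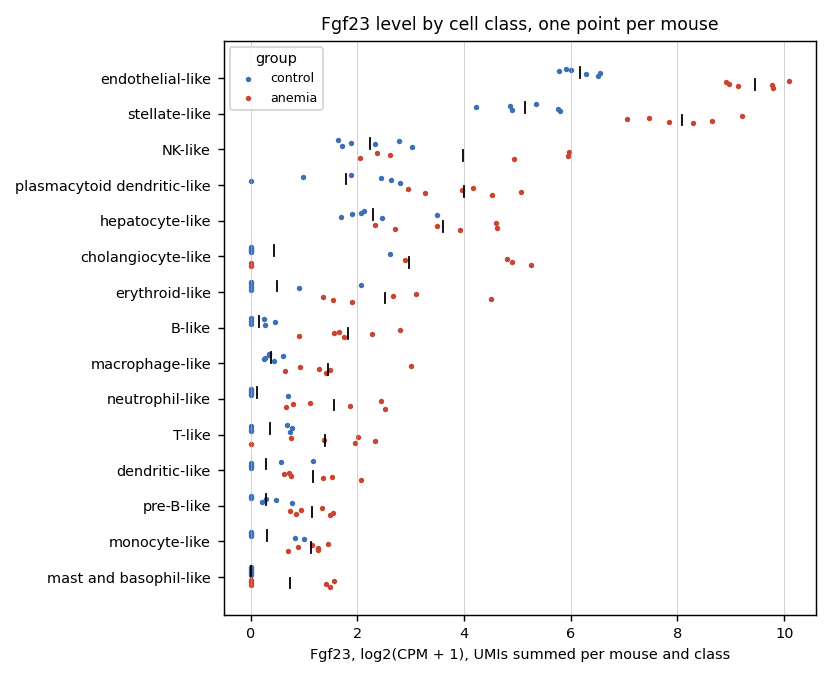
Fgf23 as log2(CPM + 1) in each named class, with 1 point per control or PIA mouse and black ticks for the group means. Endothelial-like and stellate-like cells stand above the other classes in both groups, with PIA means of 733 and 307 CPM.

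Over the 15 classes, the genes whose mean log2(CPM + 1) followed Fgf23 most closely were Pcdh12, A830082K12Rik, Arhgef15, Mest and Cyp26b1, with Pearson r from 0.992 to 0.995. All 5 were highest in endothelial-like cells. Over the 12 endothelial-like sums they were Platr31, Rhoj, Fabp5, Il1r1 and Armcx4, with r from 0.971 to 0.995. Fabp5, a fatty acid-binding protein, had a mean of 1234 CPM in control and 4176 CPM in anemia, and Il1r1, the receptor for interleukin-1, had 124 and 284 CPM. Classes and mice share libraries, and the 12 sums fall into 2 groups, so these correlations describe the order of the values and carry no p.

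The 250 bases before the annotated start of Fgf23, chr6:127072652-127072901 on the plus strand of GRCm38.p6 from RefSeq, are shown because hypoxia is among the known signals for this gene. Capitals mark the one GCGTG, a form of the core that hypoxia-inducible factors bind, 165 bases before the start.
Fgf23 upstream: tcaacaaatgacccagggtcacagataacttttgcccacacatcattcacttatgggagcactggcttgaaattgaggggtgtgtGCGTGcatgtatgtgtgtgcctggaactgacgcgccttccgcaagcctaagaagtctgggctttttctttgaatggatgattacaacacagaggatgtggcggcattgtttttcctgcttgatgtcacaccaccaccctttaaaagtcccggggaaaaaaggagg
On both strands, ACGTG was found in 16.6% and GCGTG in 28.2% of 32851 windows of this length. The Fgf23 window had no ACGTG and 1 GCGTG. The latter was also in the 1 window of Galnt3 and in both windows of Furin, and not in that of Fam20c. A match describes letters and is not evidence of a bound site.

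Galnt3, the transferase that glycosylates FGF23 beside its cleavage site, was near the floor of detection in endothelial-like cells in both groups. There were 19 UMIs in control and 17 in anemia over 26925 cells, with 1, 1, 1, 2, 13 and 1 UMIs in the control mice and 2, 5, 1, 2, 5 and 2 in the anemic mice. The mean level was 0.222 ± 0.322 CPM in control and 0.262 ± 0.193 CPM in anemia (SD). The mean of 3 UMIs per mouse was below the minimum of 5 for a test. In sinusoidal-like cells, where most Fgf23 was, there were 8 and 5 Galnt3 UMIs, so a change of Galnt3 in the cells with Fgf23 was not detectable at this depth.

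Outside the endothelium Galnt3 was highest in cholangiocyte-like cells, at 31.5 ± 5.87 CPM in control and 23.8 ± 9.10 CPM in anemia (SD). The difference there was -0.38 ± 0.28 on the log2 scale (SE, adjusted p = 0.715), and the groups overlapped. Macrophage-like cells, the resident Kupffer cells and their relatives, had 15.8, 16.6, 16.3, 18.1, 20.4 and 15.7 CPM in controls and 20.2, 21.9, 16.9, 19.7, 28.5 and 17.2 CPM in anemic mice. The log2 difference was 0.37 ± 0.13 (SE, 2 SE either side 0.11 to 0.62) with an adjusted p of 0.139 in edgeR, which did not pass. Mast and basophil-like, neutrophil-like and monocyte-like cells followed at 13.3, 11.1 and 9.54 CPM over the 12 mice, neighbours that differed by less than the larger of their SDs, and hepatocyte-like and erythroid-like cells had under 1 CPM. Galnt3 and Fgf23 were thus highest in different classes of liver cell.

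Genes whose means over the classes were most like those of Galnt3 were Lpcat2, Vill, 9130230L23Rik, Stk40 and Hspa4l, with r from 0.803 to 0.835 over 15 classes.

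Furin, the ubiquitous convertase of the trans-Golgi, was present in endothelial-like cells of every mouse, and its group means differed by less than the spread between mice. Controls had 56.1, 55.4, 64.1, 49.7, 48.8 and 55.2 CPM and anemic mice 46.7, 60.0, 58.3, 50.3, 52.9 and 55.5 CPM. The ranges overlapped, with anemia 1 below every control and control 3 above every anemic mouse, and with means of 54.9 ± 5.50 and 53.9 ± 4.99 CPM (SD). The log2 difference was 0.10 ± 0.09 (SE, 2 SE either side -0.07 to 0.27), with an adjusted p of 0.451 in edgeR. In sinusoidal-like cells it was -0.01 ± 0.08 (adjusted p = 0.967), and in large-vessel-like cells 0.05 ± 0.14 (adjusted p = 0.927). The range for all endothelial-like cells leaves room for a rise of up to 0.27 on the log2 scale. The share of endothelial-like cells with a Furin UMI was 21.2% in control and 25.1% in anemia, and 5.16% and 5.04% after thinning, with 3.27% and 3.61% unthinned in B-like cells.

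The enzymes were also read in cells with and without Fgf23. Among sinusoidal-like cells that were not called doublets, a comparison chosen after the values were seen, cells with an Fgf23 UMI had a mean of 59.3 ± 8.11 CPM of Furin in control and 49.8 ± 3.60 CPM in anemia (SD), and cells without one had 51.7 ± 5.21 and 44.8 ± 11.5 CPM. The log2 ratio was 0.19 ± 0.26 (SD) over the 12 mice and was above 0 in 10 of 12. For Fam20c it was -0.16 ± 0.55 and above 0 in 4 of 12, and for Galnt3 0.12 ± 0.26 and above 0 in 5 of 12, both from few UMIs. Cells with an Fgf23 UMI were deeper, with median depths of 4625.5 against 3461 UMIs in control and 4922.5 against 3913 in anemia, and the part of depth in this was not tested.

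Across the liver Furin was highest in mast and basophil-like cells, at 321 ± 36.8 CPM in control and 222 ± 69.5 CPM in anemia (SD), and endothelial-like cells were 7th of 15 classes at 54.4 CPM over the 12 mice. From dendritic-like at 89.5 CPM down to plasmacytoid dendritic-like at 43.2 CPM, neighbouring classes differed by less than the larger of their SDs. The mast and basophil-like difference was -0.59 ± 0.18 on the log2 scale (SE, adjusted p = 0.201). T-like cells had 57.1, 70.7, 54.4, 68.6, 66.1 and 60.3 CPM in controls and 64.5, 195, 140, 75.5, 85.1 and 102 CPM in anemic mice. Anemia 2 and anemia 3 were the high mice, and the difference of 0.86 ± 0.22 (adjusted p = 0.0989) became 0.38 (adjusted p = 0.235) without them. Furin passed the test in 0 of the 15 classes by edgeR, and at an unadjusted p under 0.05 in 4, the T-like, NK-like, monocyte-like and mast and basophil-like classes. The T-like difference passed in 4 of 11 alternatives, with an adjusted p as low as 0.00027 without a filter on low counts, and the mast and basophil-like one in 1, the joint voom model (adjusted p = 0.031).

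Genes whose class means were most like those of Furin were Plk3, Zyx, Map2k3, Fosl2 and Nabp1, with r from 0.839 to 0.893 over 15 classes.

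**Figure D4:**
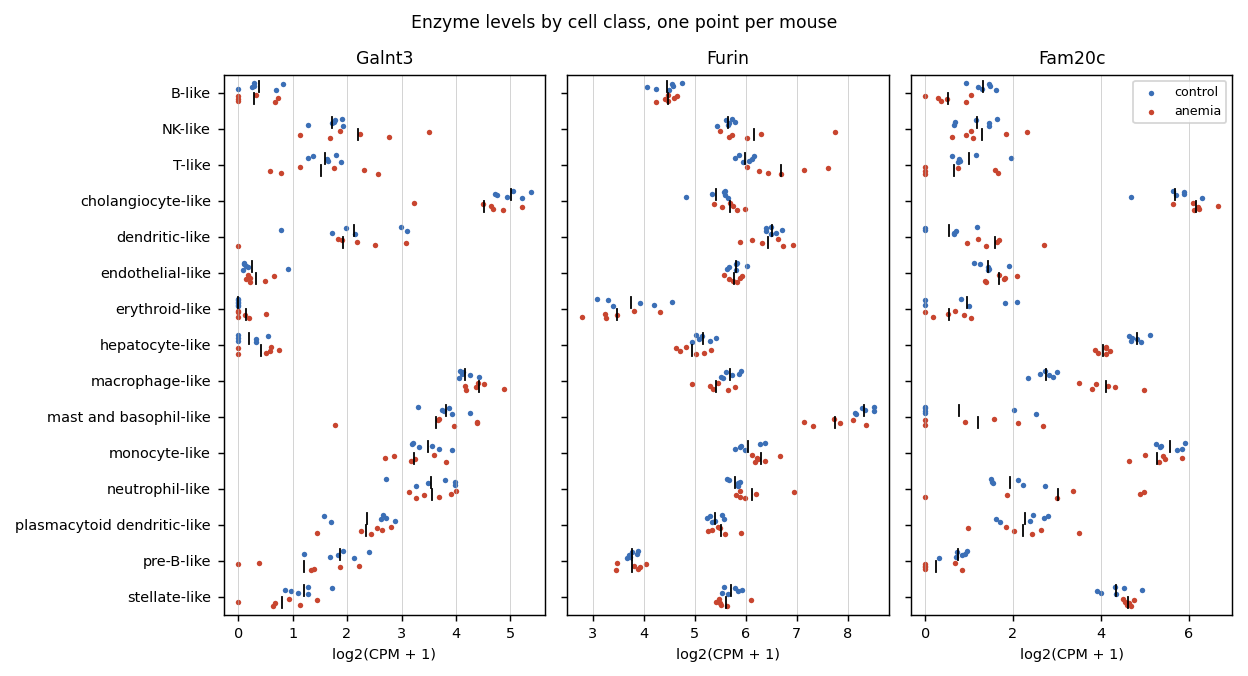
Galnt3, Furin and Fam20c as log2(CPM + 1) in each named class, 1 panel a gene, with 1 point per control or PIA mouse and black ticks for the means. Galnt3 is highest in cholangiocyte-like and macrophage-like cells, Furin in mast and basophil-like cells, and Fam20c in cholangiocyte-like and monocyte-like cells, and endothelial-like cells have little Galnt3 or Fam20c.

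Fam20c, the secretory pathway kinase of FGF23, was scarce in endothelial-like cells, with 137 UMIs in control and 159 in anemia. Controls had 1.17, 1.36, 2.75, 1.71, 1.76 and 1.68 CPM and anemic mice 2.21, 3.27, 2.53, 2.46, 1.58 and 1.61 CPM. The groups overlapped, and the log2 difference of 0.51 ± 0.24 (SE, 2 SE either side 0.03 to 0.99) had an adjusted p of 0.155 in edgeR. It was -0.26 with called doublets left out and 0.70 with sex as a covariate, which passed at an adjusted p of 0.042, so no direction was read from it. Sinusoidal-like cells held 34 and 16 of these UMIs, at 0.529 and 0.270 CPM. The lymphatic-like sub-cluster had 31.8 CPM in control and 24.3 CPM in anemia, and the unnamed one led by Cxcl12, Ly6c1 and Dach1, with the contractile and collagen genes Acta2 and Col3a1, had 14.8 and 20.8 CPM.

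Fam20c was higher in macrophage-like cells of anemic liver. Controls had 5.65, 6.98, 5.13, 6.10, 6.58 and 4.09 CPM and anemic mice 10.3, 13.7, 16.8, 18.9, 12.9 and 30.9 CPM, with no overlap. The log2 difference was 1.65 ± 0.23 (SE, adjusted p = 0.0031, edgeR quasi-likelihood test with Benjamini-Hochberg adjustment). The share of macrophage-like cells with a Fam20c UMI was 2.11% in control and 5.81% in anemia, and 0.583% and 1.56% after thinning, against 0.145% and 0.0303% thinned in B-like cells. Clusters within the class differed in level. The cluster led by Prg4, Serpinb2 and Saa3 was the highest of the class in both groups, with a mean over mice of 51.7 CPM (40.0 to 99.1) in control and 69.7 CPM (15.1 to 133) in anemia and a log2 difference of 0.45 ± 0.45 (adjusted p = 0.950). It held 385 control and 2024 anemic cells, and 1 mouse gave 49.6% of all its cells. Over all its cells the order was the opposite, 49.2 CPM in control and 28.9 CPM in anemia, so no direction was read for it.

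Within the largest cluster, led by the Kupffer cell genes Clec4f, Vsig4 and Fcna, Fam20c was 4.04 CPM in control and 10.8 CPM in anemia, a log2 difference of 1.44 ± 0.27 (adjusted p = 0.0102). Single mice ran from 2.24 to 5.49 CPM in control and from 3.89 to 17.9 CPM in anemia, so the groups overlapped in this cluster. Without the Prg4 cluster the class difference was 1.35 ± 0.24 (adjusted p = 0.0107), so it did not rest on that cluster alone. Calls made up 3.08% of genes tested in the Clec4f cluster, 0% in the Prg4 cluster, where edgeR called no gene and 663 had an unadjusted p under 0.05, and 1.64% in the class without it. The 6 monocyte markers summed to 450 to 911 CPM in control and 630 to 2128 CPM in anemic macrophage-like cells, and erythroid markers to 1953 to 9167 and 4230 to 47862 CPM. Their part in the rise was not tested.

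Fam20c was lower in hepatocyte-like cells of anemic liver. Controls had 33.9, 23.9, 25.2, 27.3, 24.6 and 29.1 CPM and anemic mice 16.3, 16.2, 13.7, 17.4, 14.3 and 16.4 CPM, with no overlap. Without TMM factors the median log2 difference of all genes in this class was -0.40, so the lack of overlap in CPM says little by itself. The log2 difference was -0.54 ± 0.11 (SE) with an adjusted p of 0.0007 in edgeR, and the call was lost in cells with at most 10% mitochondrial UMIs, at -0.29 (adjusted p = 0.173). Calls were common in this class, at 55.3% of 12050 genes tested, of which 3649 were called lower. All 4 secretory pathway kinases tested there, Fam20a, Fam20b, Fam20c and Pkdcc, were called lower, so the fall was not particular to Fam20c. Their median log2 difference was -0.58, against -0.09 over all genes of the class. The Fam20c difference did not pass in any of the 4 hepatocyte-like clusters alone. Its log2 differences there were -0.09, -0.60, 0.04 and -0.36, with adjusted p from 0.434 to 0.958. Calls made up 5.68, 5.85, 7.57 and 6.38% of genes tested in these clusters. The cluster with most Fam20c, led by Apob, Cps1 and Itih2, had 35.1 CPM in 2396 control cells and 33.1 CPM in 1333 anemic cells. The one with least, led by Uox, Gnmt and Ttc36, had 8.78 CPM in 1700 control cells and 7.01 CPM in 4581 anemic cells. The part of the make-up of the class in the fall was not tested. Stellate markers in hepatocyte-like cells summed to 397 to 624 CPM in control and 26.6 to 144 CPM in anemia, and the part of these markers in the fall was not tested.

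The macrophage-like and hepatocyte-like classes thus differed in direction, a pair chosen after both were seen and in which neither class had overlapping groups, so the contrast between them is given as a description. A permutation test run on such a pair can give only its smallest p, and none is reported. The log2 difference between the classes, taken within each mouse, was -2.07 in control and 0.05 in anemia, a change of 2.12. In other classes Fam20c was highest in cholangiocyte-like cells, at 53.6 ± 17.4 CPM in control and 72.3 ± 16.6 CPM in anemia (SD, log2 difference 0.39 ± 0.21, adjusted p = 0.610). Monocyte-like cells had 47.8 ± 9.72 and 39.3 ± 11.1 CPM (log2 difference -0.16 ± 0.20, adjusted p = 0.780). That class held different cells in the groups, since its cluster led by Ly6i, Saa3 and Clec4e made up 0.0979% of control and 3.87% of anemic cells, with 79.3% of it from 1 mouse. Another of its clusters was led by the granulocyte genes Elane, Mpo and Prtn3, before the monocyte genes F13a1 and Ly6c2. Stellate-like cells had means of 19.9 and 23.7 CPM (log2 difference 0.37 ± 0.16, adjusted p = 0.135), and the difference passed in 2 of 11 alternatives, the replicate block (adjusted p = 0.049) and the joint voom model (adjusted p = 0.031). Over all cells of a group, each of the 3 stellate-like clusters was lower in anemia, at 46.4 and 38.7 CPM in that led by Mfap4, 6.26 and 3.91 CPM in that led by Ank3 and 37.9 and 24.3 CPM in that led by Acta2, of which 4 control and 5 anemic mice had at least 20 cells. The Ank3 cluster had 2085 control and 833 anemic cells. Stellate-like and hepatocyte-like cells, at 21.8 and 21.5 CPM over the 12 mice, were neighbours in the order and did not differ beyond their SD.

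Genes whose class means were most like those of Fam20c were Fn1, which encodes fibronectin, Nupr1, Zfyve9, Deptor and Hcfc1r1, with r from 0.820 to 0.911 over 15 classes.

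Over the 15 classes, 31 pairs of an enzyme gene and a class had enough UMIs to test, 8 for Galnt3, 15 for Furin and 8 for Fam20c. Of these, 1 was called higher and 1 lower, both Fam20c. The share of all genes tested that was called was 2.26% in macrophage-like and 55.3% in hepatocyte-like cells, where these calls lie. It was 17.6% in endothelial-like and 16% in stellate-like cells, and 2.32% in B-like, 1.5% in pre-B-like, 1.47% in dendritic-like and 1.27% in plasmacytoid dendritic-like cells. It was 0.385% in T-like, 0.38% in erythroid-like, 0.353% in neutrophil-like, 0.293% in monocyte-like, 0.18% in NK-like, 0.172% in mast and basophil-like and 0.0201% in cholangiocyte-like cells. With 1 mouse left out, the 332 calls in macrophage-like cells ran from 105 without control 1 to 469 without anemia 4, and the 40 in erythroid-like cells from 15 without control 1 to 97 without anemia 5. In the classes with few calls of any gene, an enzyme that did not pass says little.

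**Figure D5:**
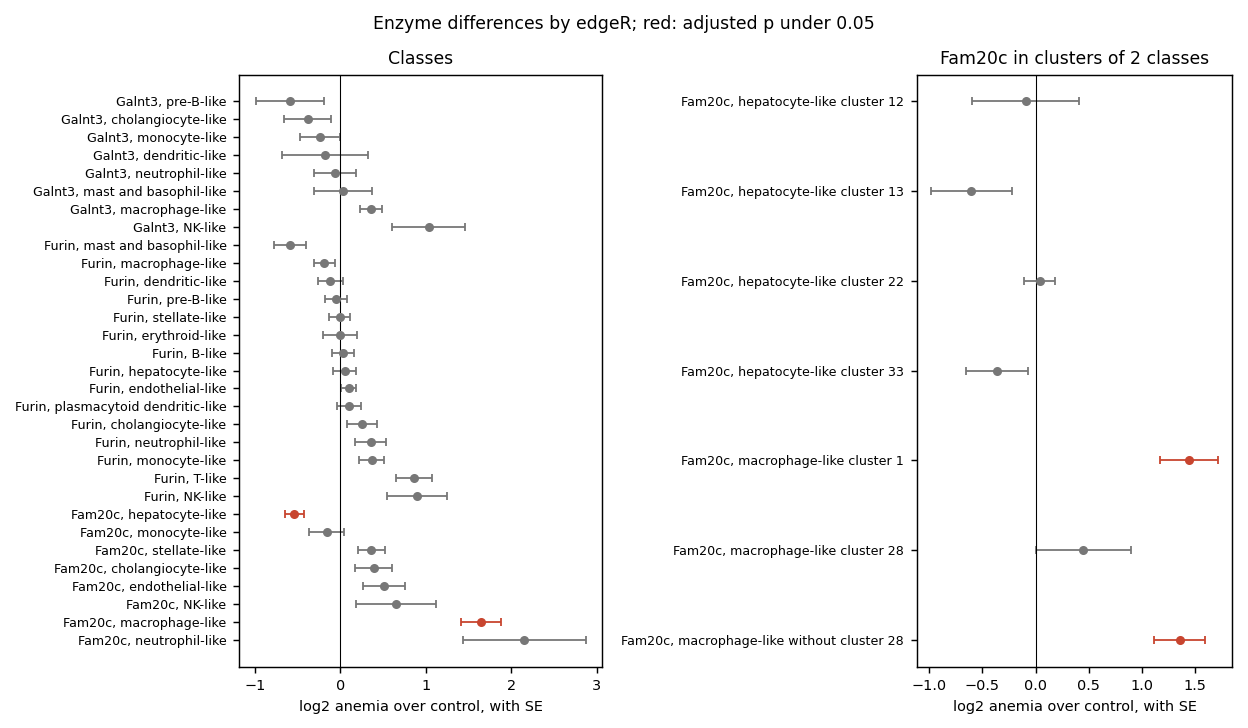
Log2 difference between PIA and control of Galnt3, Furin and Fam20c in each class tested (left panel) and of Fam20c in clusters of macrophage-like and hepatocyte-like cells (right panel). Bars are the SE, and red marks an adjusted p under 0.05 in edgeR. The red points are Fam20c at 1.65 in macrophage-like, -0.54 in hepatocyte-like, 1.44 in the Clec4f cluster and 1.35 in macrophage-like cells without the Prg4 cluster. The endothelial-like points are not red.

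The wider pathway was read in endothelial-like cells from 6 lists of genes. Of 17132 genes tested there, 7.96% were called higher and 9.61% lower, and the median log2 difference was 0.02. The counts of each list stand beside these shares. Overlap in this class was read on CPM without TMM factors, where the median log2 difference of all genes was -0.09. The list of O-glycosylation enzymes, the GalNAc transferases that begin mucin-type glycans, had 15 of 19 genes tested, of which 2 were called higher and 1 lower, with a median of 0.08. The most abundant were Galnt18 (546 CPM in control, 526 in anemia), Galnt1 and Galnt2 (99.5 and 88.7 CPM). Galnt1 rose by 0.27 ± 0.07 on the log2 scale in edgeR with TMM factors (adjusted p = 0.024), with unscaled means of 125 and 138 CPM. Galnt16 fell by 0.55, with an SE of 0.17, from 5.27 to 3.33 CPM (adjusted p = 0.040). With each mouse left out in turn, the Galnt1 call held in 10 of 12 fits, not without control 1 or control 2 (0.26 and 0.25, adjusted p up to 0.0526). It was also lost without TMM factors (0.15, adjusted p = 0.119) and without anemia 2 and anemia 3 (0.20, adjusted p = 0.0712). A processed pseudogene on the same strand overlaps Galnt1, and another Galnt16. The Galnt16 call held in 3 of 12, those without control 3, anemia 3 or anemia 6, and its log2 difference ran from -0.66 to -0.47.

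Galnt15 was the transferase with the largest difference. Controls had 0.832, 1.36, 2.35, 0.394, 0.472 and 0.471 CPM and anemic mice 3.25, 15.1, 8.53, 2.95, 7.30 and 7.86 CPM. Every anemic mouse lay above every control, at a log2 difference of 3.10 ± 0.50 (adjusted p = 0.0011), from 72 control and 465 anemic UMIs.

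The convertases had 6 of 9 genes tested, with 1 higher, 0 lower and a median of 0.10. Pcsk5, which cuts proproteins at the cell surface, rose by 0.67 ± 0.19, from 15.6 to 22.6 CPM (adjusted p = 0.026), with 3 of 6 anemic mice above every control. This call was lost without control 1, 4 or 6 or anemia 1 or 4, where the difference was 0.56 to 0.65 (adjusted p up to 0.0651), and without called doublets (0.52, adjusted p = 0.292). Stellate-like cells had more Pcsk5, at 86.4 CPM in control and 116 CPM in anemia. After Furin, the most abundant were Pcsk7 (41.6 CPM in control, 33.9 in anemia) and Mbtps1, the protease of membrane-bound transcription factors (36.8 and 33.9 CPM). In unscaled CPM every anemic mouse was below every control for Pcsk7. Its log2 difference was -0.17 ± 0.06 (adjusted p = 0.0502). The list had 1 convertase called lower with DESeq2, without TMM factors, at a minimum of 50 UMIs and at resolution 1. The secretory pathway kinases had 6 of 7 genes tested and 0 called by edgeR, with 2, Fam20a and Fjx1, at an unadjusted p under 0.05, and a median of 0.08. Fam20a, the pseudokinase partner of FAM20C, was the most abundant (78.8 CPM in control, 55.4 in anemia), before Gask1b (27.9 and 29.9 CPM) and Pkdcc (26.3 and 23.1 CPM).

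Of receptors, relatives of FGF23 and bone regulators, 8 of 12 were tested, with 0 higher, 1 lower and a median of -0.35. Fgfr2, an FGF receptor, had 372, 419, 265, 386, 387 and 392 CPM in controls and 271, 160, 283, 265, 186 and 266 CPM in anemic mice. It fell by 0.52 (SE 0.14, adjusted p = 0.021, or 0.0516 with the replicate number as a block), with control 3 within the anemic range, and its annotated body overlaps several other genes, so its count is uncertain. Fgfr1 (22.3 CPM in control, 17.9 in anemia) and Fgfr3 (9.39 and 7.38 CPM) came next in level. Kl, which encodes Klotho, the co-receptor for FGF23, was below the minimum for a test.

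Of signals known to raise Fgf23, 10 of 11 were tested, with 3 higher and 1 lower and a median of 0.71. This median was 0.37 without anemia 2, 0.42 without called doublets and 0.13 without anemia 2 and anemia 3, and it was 0.01 in sinusoidal-like cells. Epor, the erythropoietin receptor, had 10.8, 9.95, 10.1, 8.02, 7.36 and 8.82 CPM in controls and 12.1, 15.1, 14.4, 12.0, 14.6 and 12.9 CPM in anemic mice. It rose by 0.68 ± 0.12 (adjusted p = 0.0018), with every anemic mouse above every control. Hif1a, a subunit of the hypoxia-inducible factor, rose by 0.45 ± 0.09, from 112 to 140 CPM (adjusted p = 0.0035), with 6 of 6 anemic mice above every control. Its annotated body overlaps Gm49321 on the same strand, so this count is uncertain. Epas1, the other main subunit, was the most abundant of the list, at 384 CPM in control and 355 CPM in anemia, and Tfrc, the transferrin receptor, had 44.7 and 40.9 CPM. Erythroid markers were also higher in these sums, as given above, and their part in Epor was not tested.

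Il1b, an inflammatory cytokine, had an adjusted p of 0.037 at a log2 difference of 2.85 ± 0.87, and this call rested on anemia 2 and anemia 3. These mice had 130 and 52.8 CPM, the other anemic mice 3.98 to 6.23 CPM and controls 3.91 to 7.52 CPM. Without both mice the difference was 0.01 (adjusted p = 0.987). Leaving out any single control, anemia 2 or anemia 3 also ended the call, at 1.49 without anemia 2. In the same sums macrophage markers were highest in anemia 2 and anemia 3, at 453 and 300 CPM against 166 to 258 CPM in the other 10 mice, and neutrophil markers in anemia 3, at 1719 CPM, and their part was not tested. Of all Il1b UMIs in the kept cells of anemic mice, 2.00% lay in endothelial-like cells. Epo itself fell by 1.10 (SE 0.15, adjusted p = 0.00046), from 9.23 to 4.00 CPM in endothelial-like cells, with every anemic mouse below every control. Its annotated body overlaps Pop7 and Gnb2 on the same strand, so this count is uncertain. Over all kept cells Epo had 157 to 334 UMIs per control mouse and 78 to 159 per anemic mouse.

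Of feedback genes and early targets of FGF receptor signaling, 10 of 12 were tested, with 3 higher and 1 lower and a median of -0.10. Without TMM factors 2 were higher and 3 lower, with a median of -0.21, and with DESeq2 or voom 3 were higher and 2 lower. Spry2 rose by 0.52 ± 0.14, from 38.7 to 50.6 CPM (adjusted p = 0.018), and Spred1 by 0.38 ± 0.09, from 108 to 128 CPM (adjusted p = 0.0090). Both encode inhibitors of Ras signaling below receptor tyrosine kinases. Spry1 rose by 0.51 ± 0.17, from 17.9 to 23.5 CPM (adjusted p = 0.049), with 2 of 6 anemic mice above every control, and this call held in 2 of 12 fits with a mouse left out, those without control 3 or anemia 2. Spry4, of the same family, fell by 0.48 (SE 0.15, adjusted p = 0.040), from 77.1 to 50.4 CPM, with every anemic mouse below every control. Its call held in 4 of 12 such fits, without anemia 1, 3, 5 or 6, with differences from -0.58 to -0.39. The genes of this list therefore moved in both directions. Egr1, an immediate early gene, was the most abundant, at 1188 CPM in control and 1031 CPM in anemia, before Spred2 at 138 and 118 CPM.

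Without anemia 2 and anemia 3, 7.24% of 17304 genes tested were called higher and 10.4% lower. The counts of higher and lower genes were then 1 and 0 for the transferases, 1 and 0 for the convertases, 0 and 0 for the kinases, 0 and 1 for the receptors, 2 and 2 for the signals and 3 and 1 for the feedback genes. At the depth of this class, the test found 68% of 100 simulated 2-fold and 43.3% of 97 simulated 1.5-fold changes among 16956 genes. Far fewer genes were changed there than the 3009 called in the data, and the adjusted p depends on that share. The simulated shares therefore do not give the power for these lists.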

How the data were processed

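Livers of 6 control and 6 anemic pups were measured by droplet single-cell RNA sequencing, 1 library per mouse and all under the same labelled batch. The authors deposited raw UMI counts for each gene in each cell barcode, not normalized and made with Cell Ranger 7.0.0 according to the matrix headers. The submitters' processing notes name mm10 and Seurat, and whether intronic reads were counted is not given in the sources used here. The labels and the methods name different versions of the 3' kit.

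A cell was kept if it had 500 to 50000 UMIs, of which no more than 50% were mitochondrial. Leiden clusters (resolution 2, 20 principal components of 2000 variable genes, leidenalg 0.10.2, igraph 0.11.9, scikit-learn 1.9.0, numpy 2.4.6, scipy 1.17.1 and pandas 2.3.3 under Python 3.11.15) were named from marker lists where at least 3 markers were raised. Endothelial-like cells were clustered again at resolution 1 without the members and list genes. Sinusoidal-like sub-clusters had their 7 markers raised over other cells and did not reach the minimum of 3 within the endothelial-like cells. Doublets were called from simulated doublets at 0.8% per 1000 cells and kept. They made up 13.9% of cells.

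For each class, UMIs were added up by mouse and tested with edgeR 4.0.16 (TMM, quasi-likelihood) in R 4.3.3 over genes averaging 5 UMIs a mouse or more, without mitochondrial and ribosomal protein genes. A gene was called at a Benjamini-Hochberg adjusted p under 0.05 over all genes tested in the class. The p-values judge a difference between the groups against the spread between mice. DESeq2 1.42.0, limma 3.58.1 (voom), other scaling, filters, covariates and cell sets were alternatives. Settings without anemia 2 and anemia 3 together, Fam20c by cluster, list genes by setting and the motif GCGTG were added after the data were seen. The test was checked on simulated counts, where 8.33% of its calls were false. Plots were drawn with matplotlib 3.10.9.

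The members and lists were chosen with earlier results of these data known. Genes named are the members, the list genes called in endothelial-like cells, the 3 most abundant of each list and the 5 genes most like a member. Depth limits what was tested: a mean of 5 UMIs per mouse was required, and shares of cells with a UMI carry counting error beside the spread between mice.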

Additional observations from a re-analysis of the deposited data

Results flagged for a closer look

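Of 100 groups of 6 mice examined, 10 held a mouse whose gap to the nearest other mouse was more than 0.625 of the range of its group, and chance gives about 1 group in 20.

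For Fgf23, anemia 4 stood high in erythroid-like cells at 21.6 CPM, with the next mouse at 7.53 CPM. Control 4 stood high in hepatocyte-like cells at 10.2 CPM, next to 4.52 CPM, and anemia 1 in macrophage-like cells at 7.07 CPM, next to 1.81 CPM. None of these is a class that carried much Fgf23.

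For Furin, anemia 2 was the high mouse in 3 classes. It had 213 CPM in NK-like cells with the next mouse at 78.0 CPM, 122 CPM in neutrophil-like cells next to 72.2 CPM, and 67.9 CPM in stellate-like cells next to 48.9 CPM. Galnt3 was low in NK-like cells of control 5, at 1.42 CPM, and Fam20c high in endothelial-like cells of control 3, at 2.75 CPM.

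Control 3 was also apart in endothelial-like cells for Fgfr2, low at 265 CPM with the nearest control at 372 CPM, and for Spry1, high at 26.4 CPM with the nearest at 18.1 CPM.

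Fam20c moved in opposite directions in macrophage-like and hepatocyte-like cells, with a difference between the classes of 2.12 on the log2 scale. Every anemic mouse lay above every control in the former and below in the latter, and the pair was chosen after both were seen, so the permutation test run on this difference could give only its smallest p and counts as no test.

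Cells in clusters without a class name were outside the comparisons by class. They had a mean of 39.1 ± 15.3 CPM of Fgf23 in control mice and 314 ± 93.1 CPM in anemic mice (SD, n = 6), with ranges of 19.4 to 60.7 and 216 to 489 CPM, and carried the gene above the control level in every anemic mouse. Called doublets made up 92.8%, 76.6% and 98.5% of the 3 unnamed clusters, and Fgf23 was 6.24 and 64.6 UMIs per 1000 UMIs of the endothelial markers.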

How the results depend on the processing

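The log2 difference of Fgf23 in endothelial-like cells was 3.29 and ran from 3.29 to 3.54 over the other settings and from 3.16 to 3.40 with 1 mouse left out. The log2 ratio of the share of cells with an Fgf23 UMI was 1.77, and 2.61 after thinning. Furin in endothelial-like cells, at 0.10, turned to -0.015 without TMM factors and to -0.00059 without anemia 2 and anemia 3, and ran from 0.04 to 0.14 with 1 mouse left out. Fam20c there, at 0.51, was 0.70 with sex as a covariate, past the threshold, and -0.26 without called doublets, and ran from 0.36 to 0.66 with 1 mouse left out. Calls in endothelial-like cells were 3009 genes in edgeR, 4551 in the joint voom model and 2016 to 3679 with 1 mouse left out. Fam20c kept its call with each mouse left out in macrophage-like (1.44 to 1.77) and hepatocyte-like cells (-0.57 to -0.45), and the latter lost it at -0.29 in cells with at most 10% mitochondrial UMIs. Galnt3 in endothelial-like cells was tested only without the filter on low counts, at 0.18 ± 0.70 (adjusted p = 0.916). Without TMM factors the median log2 difference of all genes went from -0.09 to -0.40 in hepatocyte-like and from 0.01 to -0.27 in erythroid-like cells. The causes of these shifts were not tested.

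Of the enzyme and class pairs outside endothelial-like cells, 2 were called, against 1 in cells with at most 10% mitochondrial UMIs and 5 in the joint voom model. Replicate numbers were not treated as pairs in the main fit, and whether they pair the mice was not settled. Deviations of same-numbered mice correlated at -0.17 to 0.51 over all kept cells. There 3 of 6 pairs were over 0.1 and 1 of 6 controls was closest to its own number. In endothelial-like cells the correlations were -0.056 to 0.47 with a median of 0.15, with 4 of 6 over 0.1 and 2 of 6 controls closest. With the replicate number as a block 4 pairs were called, calls in endothelial-like cells were 2771, Fgfr2 reached an adjusted p of 0.0516 and Il1b 0.142.

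These differences did not pass and changed sign. Galnt3 in mast and basophil-like cells, at 0.03, was -0.071 with the block, -0.38 without called doublets, -0.32 at resolution 1, -0.12 without anemia 2 and anemia 3 and -0.095 with voom. Galnt3 in monocyte-like cells turned to 0.13 at resolution 1, and in neutrophil-like cells to 0.0017 at resolution 1 and 0.088 with voom. Furin turned to -0.0027 (sex) and -0.052 (without anemia 2 and anemia 3) in B-like cells, -0.44 without called doublets in cholangiocyte-like cells, 0.10 without anemia 2 and anemia 3 in dendritic-like cells and 0.057 with sex in stellate-like cells. In erythroid-like cells it was -0.028 with DESeq2, -0.23 without TMM factors, -0.0058 at most 10% mitochondrial UMIs, -0.027 at resolution 1, -0.091 without anemia 2 and anemia 3 and -0.10 to 0.081 with 1 mouse left out. In hepatocyte-like cells it was -0.26 without TMM factors, -0.044 at a minimum of 50 UMIs and -0.10 without called doublets. Fam20c turned to -0.50 without called doublets in cholangiocyte-like cells and to -0.078 with voom in NK-like cells. The Fam20c difference of hepatocyte-like cells, which passed, was 0.039 in the cluster led by Apob.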
